A study of Drosophila melanogaster with 3 samples.

Results

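The peaks described here were bound by croc-eGFP in a pair of embryo collections that included replicate 3, yet had no counterpart in the conservative peak list of the study. They were chosen by measured values: from the thresholded lists of replicates 2 and 3 (2889 peaks on the 6 chromosome arms) and of replicates 1 and 3 (3248 peaks), every interval with no conservative summit within 250 bp was kept. This left 498 of 3464 peaks (14.4%), called missing peaks below, and 2966 retained peaks. Of the missing peaks, 313 were only in the list of replicates 1 and 3, 175 only in that of replicates 2 and 3, and 10 in both. The lists overlapped far more among retained peaks, of which 2659 (89.6%) were in both. Summits within 250 bp of each other were merged to 1 site for every test, which gave 404 missing and 2620 retained sites and none of mixed kind.

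The study had 1 group: whole Drosophila melanogaster embryos aged 0 to 18 h with a transgene for croc-eGFP, a fusion of the croc protein to a green fluorescent tag. Chromatin was pulled down with an antibody to GFP and sequenced (ChIP-seq) in 3 biological replicates. The embryos of this age window mix all tissues and many stages, so the cells in which a site was bound cannot be told apart. No untagged embryos or input libraries were analysed here. The peaks are on the dm6 build.

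Crocodile (croc) encodes a transcription factor with a forkhead domain, a winged-helix fold that binds AT-rich DNA around a core that resembles TGTTTAC. In the fly embryo it is known for patterning the anterior head and the structures that form the pharynx. The irreproducible discovery rate (IDR) ranks peaks in a pair of replicates and scores each peak by how well its rank repeats. A peak can thus be lost from a pair's list when it is weak in either replicate. Some missing peaks, described below, were in the thresholded list of each single replicate and still scored under 830 for replicates 1 and 2. The deposited score reaches 1000, and the thresholded lists began at 830.

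By their input intervals, the ranked list that contained all 3650 conservative peaks was that of replicates 1 and 2. The missing peaks are thus places where at least 1 pair with replicate 3 passed the threshold and no peak of replicates 1 and 2 was kept within 250 bp, which is fixed by the way they were chosen. The conservative summit nearest to a missing peak lay at 260 bp for the closest and 265 bp for the next, and the retained peaks farthest from one lay at 249 and 236 bp. Few peaks sat near this limit: 2906 retained peaks had a conservative summit at the same base, and the median missing site was 7742 bp from one. For 168 of 404 missing sites the distance was over 10000 bp.

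To show what DNA these peaks cover, the 101 bp around the summit are given for strong missing peaks of each list, from the RefSeq Release 6 genome (dm6), plus strand, 5′ to 3′, each named by the gene with the nearest start site. Stronger peaks were passed over where their arm or an untranslated exon barred printing, the Tab2 peak among them. The first shown is the strongest missing peak of either list, the next 2 are the strongest others that could be printed from the list of replicates 2 and 3, and the last 2 those from the list of replicates 1 and 3. Capitals would mark a forkhead word (defined below), and none of the 5 windows held one.
Polr3E, chr3L:21031639-21031739: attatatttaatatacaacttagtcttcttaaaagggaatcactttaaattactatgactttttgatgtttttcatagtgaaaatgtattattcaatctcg
CG33288, chr3L:21418056-21418156: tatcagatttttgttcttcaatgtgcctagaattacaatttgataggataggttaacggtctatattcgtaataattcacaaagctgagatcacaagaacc
step, chr2L:21757507-21757607: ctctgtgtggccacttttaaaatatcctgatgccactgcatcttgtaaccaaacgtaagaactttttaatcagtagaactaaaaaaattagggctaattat
Dph1, chr3L:11696569-11696669: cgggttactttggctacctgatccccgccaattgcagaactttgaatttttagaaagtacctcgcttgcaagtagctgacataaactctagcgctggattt
Dci, chr3L:851199-851299: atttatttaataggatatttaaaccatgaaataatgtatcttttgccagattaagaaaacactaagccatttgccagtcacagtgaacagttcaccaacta

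The 3 strongest missing peaks outside promoters that held a forkhead word and could be printed follow, with the word in capitals.
CG10589, chr3L:20930590-20930690: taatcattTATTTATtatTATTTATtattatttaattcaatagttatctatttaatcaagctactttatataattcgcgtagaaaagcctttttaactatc
Syx1A, chr3R:24099084-24099184: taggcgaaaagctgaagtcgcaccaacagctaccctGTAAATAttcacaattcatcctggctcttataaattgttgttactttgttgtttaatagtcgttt
sty, chr3L:3438603-3438703: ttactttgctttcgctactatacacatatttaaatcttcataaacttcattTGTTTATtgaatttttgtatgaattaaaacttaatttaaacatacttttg
The CG10589 window lay in an intron of fng, the glycosyltransferase that modifies Notch, and carried TATTTAT on 2 occasions within an A+T content of 82.2%. The word of the Syx1A window read TATTTAC on the minus strand, in a window of 63.4% A+T. The word of the third window read TGTTTAT and began 1 base to the right of the summit, in an intron 13718 bp from the start of sty, the sprouty gene that restrains receptor tyrosine kinase signalling.

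Missing peaks were weak ones. Their median signal, the authors' value for each peak, was 114 (quartiles 88.1 and 129, highest 274), and that of retained peaks was 217 (151 and 345, highest 3101). Signal took part in choosing the peaks, so these values are a description without a test. Only 4 missing peaks (0.803%) reached a signal of 200, against 54.0% of retained peaks. In the list of replicates 2 and 3, divided into 5 equal parts from strongest to weakest, the missing peaks numbered 0, 1, 3, 22 and 159, and in the list of replicates 1 and 3 they numbered 0, 1, 10, 78 and 234. The best rank of a missing peak was 1066 in the former list and 1068 in the latter. A further 100 missing peaks had a signal under 50, and 95 of those had a stronger ranked summit within 1 peak width (384 bp), so they stood on the shoulder of another peak.

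Most missing peaks were not close to the threshold in replicates 1 and 2. In the ranked list of replicates 1 and 2, 469 of 498 were found as the same interval, with a median score of 481 (quartiles 162 and 721). Of these, 92 scored 750 or more and 260 scored under 540. The highest scores were 830, 829 and 828, and the peak at 830, at Rpe, was among 18 peaks of that ranked list that reached 830 without entering the conservative list. Peaks only in the list of replicates 1 and 3 had a median score of 443 in the ranked list of replicates 2 and 3, and peaks only in the list of replicates 2 and 3 had a median of 569.5 in that of replicates 1 and 3. Scores under 830 in the other list are fixed by the choice for all but the 10 peaks in both lists.

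**Figure D1:**
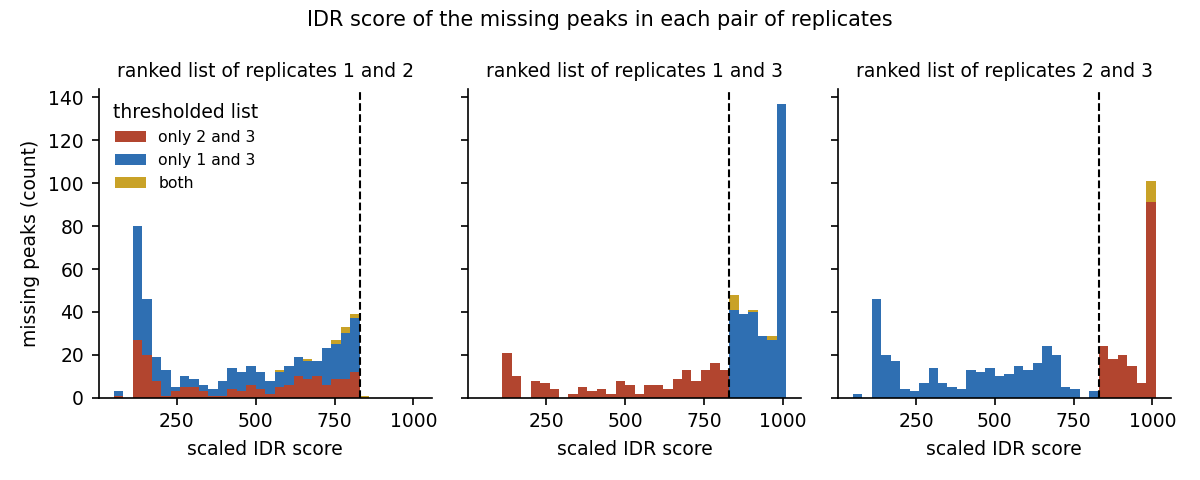
Stacked histograms of the scaled IDR score (x axis, no unit) of the missing peaks in the ranked list of each pair of replicates (y axis, peaks per bin of 30), coloured by the thresholded list that held the peak; the dashed line marks 830. Scores in the list of replicates 1 and 2 spread from 66 to 830, while each kind piled up at 1000 in its own list.

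The own lists of the single replicates gave the same picture from each side. Of the 313 peaks only in the list of replicates 1 and 3, 180 had a summit within 250 bp in the thresholded list of replicate 1, 2 in that of replicate 2 and 49 in that of replicate 3. Of the 175 peaks only in the list of replicates 2 and 3, 8 were in the thresholded list of replicate 1, 71 in that of replicate 2 and 33 in that of replicate 3. In the longer ranked lists most were found, 471 of 498 in replicate 1, 424 in replicate 2 and 465 in replicate 3. The peaks of replicates 1 and 3 had a median rank of 3064 in replicate 1, 5226 in replicate 2 and 2639 in replicate 3. The peaks of replicates 2 and 3 had a median rank of 5283 in replicate 1, 2702 in replicate 2 and 2369 in replicate 3. A low rank in the replicate that the pair leaves out is favoured by the rule, and the lists differ in length, so these ranks are not compared between replicates.

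**Figure D2:**
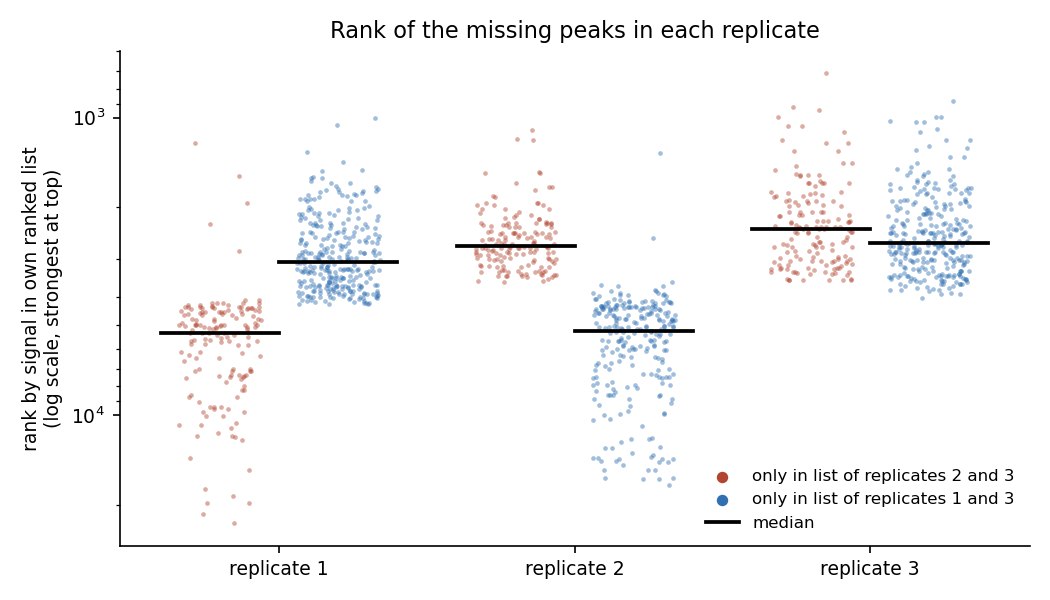
Rank by signal (y axis, log scale, strongest at the top) of each missing peak in the own ranked list of each replicate (x axis), by the pair list that held it; points are peaks and black lines medians. Within replicate 1 the medians are 5283 for peaks of replicates 2 and 3 and 3064 for peaks of replicates 1 and 3. Within replicate 2 they are 2702 and 5226, and the choice favours both orders.

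Own thresholded lists of all 3 replicates contained 7 missing peaks (1.41%), of 2 replicates 51, of 1 replicate 232 and of none 208. Among retained peaks, 54.1% were in all 3. The third thresholded list of the series, which the choice did not use, held 145 missing peaks (29.1%) and 92.0% of retained peaks. At most 9.14% of an input of its ranked list matched a single replicate.

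The strongest missing peak stood 136 bp from a start of Polr3E, which encodes a subunit of RNA polymerase III. Its own signal was 111 in replicate 1, 101 in replicate 2 and 55.9 in replicate 3, and it was in the thresholded list of each. Its score was 575 in the list of replicates 1 and 2, 858 in that of replicates 1 and 3 and 1000 in that of replicates 2 and 3. Its own ranks, 1056, 1085 and 1469, were all ahead of the upper quartiles of missing peaks (2786, 2785 and 1981).

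The other peaks seen in all 3 own lists were of varied kinds. The peak named CG33288, in an intron of rgn, had own signals of 81.4, 94.97 and 42.0 in replicates 1, 2 and 3. The peak in an intron of Tab2, an adaptor of innate immune signalling, had own signals of 45.4, 81.3 and 74.1. The peak at the promoter of CG8067 had 74.0, 55.1 and 70.1. The fng intron peak had 61.0, 66.5 and 52.0, yet scored 165 in the list of replicates 1 and 2. The peak at Rpe, which encodes an enzyme of the pentose phosphate pathway, had 38.8, 70.7 and 47.5. The last of the 7 lay in an intron of sbb and is also the one nearest to a conservative summit, at 260 bp. Its own signals of 99.6, 99.6 and 74.0 were, as for every peak, those of the strongest summit within 250 bp.

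Of the 10 peaks present in both lists, 7 were at promoters (70%, against 37.6% of all missing and 43.0% of retained peaks). Beside Polr3E, Tab2 and Rpe they included Nacalpha, a subunit of the complex that binds nascent polypeptides, with own signals of 42.6 in replicate 1, 106 in replicate 2 and 38.7 in replicate 3. Hsp22, a small heat shock protein gene, had 41.4, 101 and 50.5. Dph4, a co-chaperone gene of diphthamide synthesis, had 37.3, 79.8 and 37.1. In all 3 genes replicate 2 was the high one. The remaining 4 peaks were neighbouring pairs, 1 pair between Br140 and Incenp, both counted at promoters, and 1 pair inside l(1)G0469. The scores of the 10 in the list of replicates 1 and 2 ran from 575 to 830, with a median of 781.5, so as a group they came nearer to the conservative list than the other missing peaks.

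Among the strongest peaks of a single pair, those below had their lowest value in the replicate left out, an order that the choice of pair favours. The peaks named CG33288 and CG10589, described above, did not in own signal: both were in the list of replicates 2 and 3, and both were lowest in replicate 3. The signal scale may differ between lists. By own rank in replicates 1, 2 and 3, CG33288 stood at 1571, 1178 and 2251. CG10589 stood at 2277, 1966 and 1639. The own ranked lists held 24819, 17443 and 22972 peaks, so these ranks do not settle which replicate was lowest. Dph1, another diphthamide synthesis gene, had a promoter peak with own signals of 114 in replicate 1, 40.6 in replicate 2 and 58.9 in replicate 3. Dci, a gene of fatty acid oxidation, had 77.7, 39.8 and 76.9 at its promoter. An intergenic peak 9002 bp from Doc2, a T-box regulator of the amnioserosa and dorsal mesoderm, had 85.2, 38.5 and 66.7. All 3 belonged to the list of replicates 1 and 3, with replicate 2 lowest. From the list of replicates 2 and 3, the promoter peak of step, which encodes an Arf exchange factor, had 36.6 in replicate 1, 79.0 in replicate 2 and 68.6 in replicate 3. The promoter peak of CG3407 had 28.5, 94.6 and 88.1, and that of CG8993 had 33.6, 72.1 and 75.01, again with replicate 1 lowest.

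Where the missing sites lay was not part of the choice, and this was tested against the retained sites. A promoter (summit within 500 bp of a protein-coding start) held 147 of 404 missing sites (36.4%, 95% exact interval 31.7 to 41.3) and 42.1% of retained sites (odds ratio 0.785). That difference did not pass (2-sided Fisher's exact test, adjusted p = 0.120 over 12 properties). Introns held 40.6% against 37.3% (exact test, adjusted p = 0.246) and intergenic DNA 21.8% against 19.5% (adjusted p = 0.343). Sites over 10 kb from any start were more frequent among the missing, 65 of 404 (16.1%) against 295 of 2620 (11.3%), with an odds ratio of 1.51 (95% interval 1.11 to 2.03, exact test, adjusted p = 0.0483). That call was kept in 2 of the alternatives tried, a conservative summit within 100 bp and without replicate 2, and lost in the others, without replicate 1 among them (1.10). On X lay 15.3% of missing and 19.2% of retained sites (exact test, adjusted p = 0.129). Without replicate 1, thus in the list of replicates 2 and 3 alone, the promoter odds ratio turned to 1.46, and without replicate 2 it was 0.567 and passed the test. Sites are not independent samples, so these p-values describe the lists and not new embryos. Signal took part in choosing the missing sites, and its part in these differences was not tested. Among sites of both kinds with a signal from 91.9 to 148, the middle 80% of the missing sites, the odds ratio was 1.03 for promoters, 1.02 for X and 1.53 for distant sites (exact test, adjusted p = 0.835 for the last).

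The 2 kinds of missing site differed from each other in position, a comparison added after the values were seen. Of the 131 sites only in the list of replicates 2 and 3, 67 were at promoters (51.1%, 95% exact interval 42.3 to 60.0), against 74 of the 264 sites only in the list of replicates 1 and 3 (28.0%, 22.7 to 33.9). The odds ratio was 2.69 (1.70 to 4.25, Fisher's exact test, adjusted p = 1.41e-04 over 12 properties). Introns held 29.8% of the former and 46.2% of the latter (odds ratio 0.493, 0.307 to 0.787, exact test, adjusted p = 0.0136). The median distance to a start was 319 bp for peaks of replicates 2 and 3 and 2843 bp for peaks of replicates 1 and 3. Within the same signal range the promoter odds ratio was 3.13, so it was as large when strong and weak sites were left out. Against the 42.1% of retained sites, the 28.0% of replicates 1 and 3 was lower (exact test, adjusted p = 8.63e-05) and the 51.1% of replicates 2 and 3 did not pass (adjusted p = 0.139). Retained sites in a single list did not share the direction, with promoters at 0 of 7 sites of replicates 2 and 3 and 68 of 193 sites of replicates 1 and 3 (35.2%, Fisher's exact p = 0.0978, adjusted p = 1), but the former were few.

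The own lists of replicates 1 and 2 differed in the same direction. Promoters held 38.4% of the thresholded peaks of replicate 1, 44.0% of replicate 2 and 46.3% of replicate 3. Of peaks in the own list of replicate 1 with no summit in that of replicate 2, 308 of 1070 (28.8%) were at promoters, and of those in replicate 2 but not in replicate 1, 133 of 282 (47.2%). Peaks absent from replicate 1 had a like share when taken from replicate 3 (47.1% of 155), and peaks of replicate 1 absent from replicate 3 had 29.96% of 1532. Absent from replicate 3, peaks of replicate 2 had 37.6% of 845, and absent from replicate 2, peaks of replicate 3 had 41.2% of 255. Each kind of missing site rests on 1 pair list, so the pair and the library it leaves out cannot be told apart. These lists come from the same libraries as the missing peaks and are not a second sample.

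**Figure D3:**
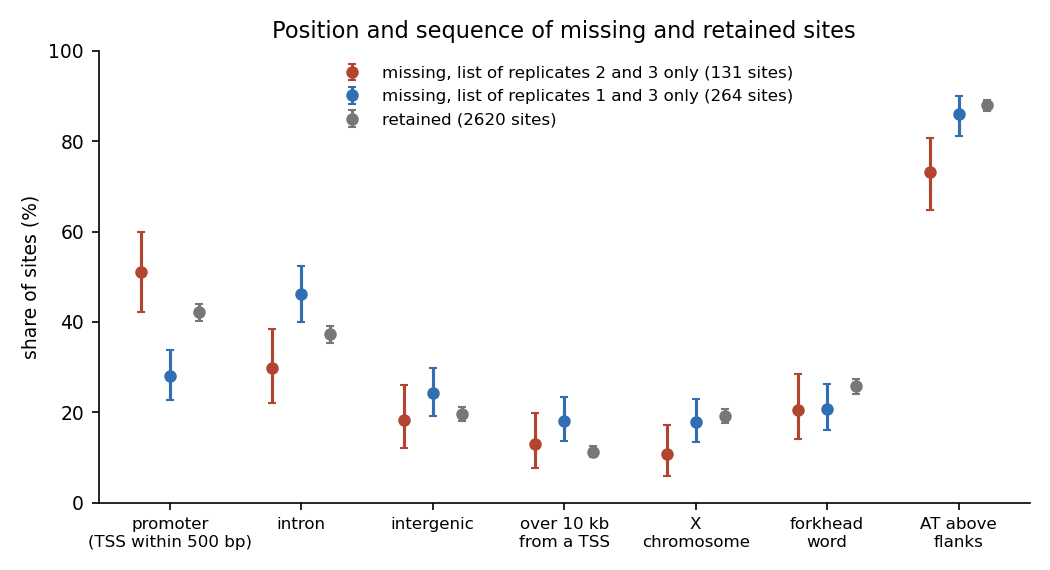
Share of sites (y axis, percent) with each property (x axis) for missing sites of replicates 2 and 3 only (131), missing sites of replicates 1 and 3 only (264) and retained sites (2620); points are shares and bars exact 95% binomial intervals. Missing sites of replicates 2 and 3 lie above those of replicates 1 and 3 at promoters (51.1% against 28.0%) and below them in introns and in A+T above the flanks, while their forkhead shares nearly coincide.

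The summits of missing sites were AT-rich, as those of retained sites were, but less so. Mean A+T in the 101 bp at the summit was 67.2% ± 0.560 (SE over 404 sites) for missing and 70.5% ± 0.185 (SE over 2620 sites) for retained sites, against 57.8% over the arms. A+T at the summit exceeded that of the flanks 500 bp to either side in 332 of 404 missing sites (82.2%) and 87.9% of retained sites (odds ratio 0.635, 0.477 to 0.853, Fisher's exact test, adjusted p = 0.0279). In the same signal range the odds ratio was 1.07 (exact test, adjusted p = 1), and without replicate 2 it was 0.874, so that call did not hold in either. Between the kinds of missing site, 73.3% of sites of replicates 2 and 3 and 86.0% of sites of replicates 1 and 3 had this excess (odds ratio 0.447, 0.257 to 0.780, exact test, adjusted p = 0.0136). Promoter share moved with this difference, and its part was not tested.

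**Figure D4:**
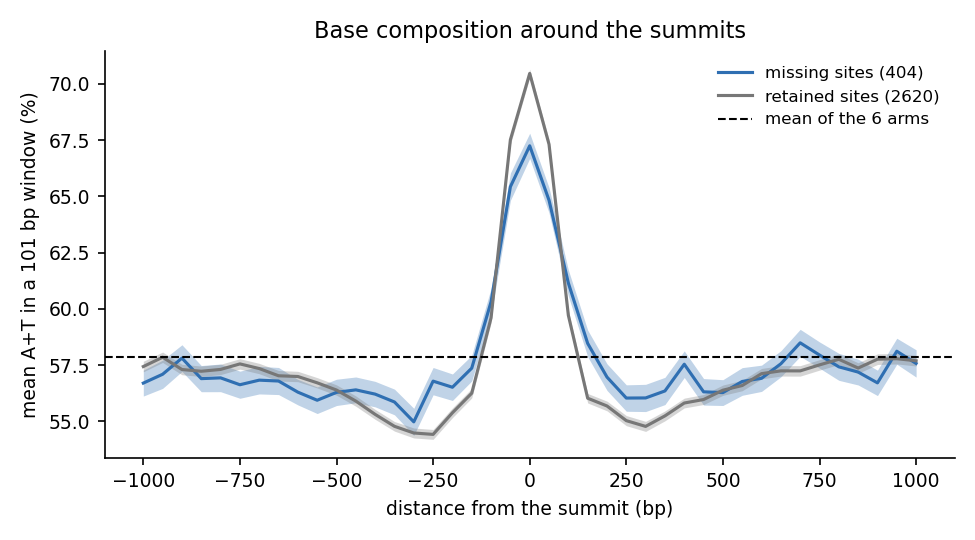
Mean A+T (y axis, percent) in 101 bp windows against distance from the summit (x axis, bp) for the 404 missing and the 2620 retained sites; shading is 1 SE over sites and the dashed line the mean of the 6 arms, 57.8%. Both curves peak at the summit, at 67.2% for missing and 70.5% for retained sites.

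Forkhead words stood at missing summits more often than beside them. The word TGTTTAC, its variant TGTTTAT, the form TATTTAC and the form TATTTAT were searched on both strands within 50 bp of the summit, and at least 1 was found in 86 of 404 missing sites (21.3%, 17.4 to 25.6). The windows 500 bp to the left of the same summits held one in 54 (13.4%), a ratio of 1.59 (exact McNemar test, 2-sided p = 0.00199). Without replicate 1 the ratio was 1.68, and the call was lost (exact p = 0.0660). Over all 1323188 windows of that length on the arms the share was 13.3%. Summits are AT-rich and so are the words; the part of base composition in this ratio was not tested. Retained sites had 25.7%, which did not differ from the missing sites beyond the threshold (odds ratio 0.781, 0.598 to 1.01, exact test, adjusted p = 0.129). The shares of the 2 kinds were 20.6% and 20.8% (odds ratio 0.987, 0.564 to 1.70). By word, TATTTAT was in 38 missing sites, TGTTTAT in 27, TATTTAC in 16 and TGTTTAC, the textbook form, in 12.

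Words of other factors were rare at missing summits, and none of their shares passed the test against retained sites. GAGAGAG, bound by GAGA factor, was in 5 missing sites (1.24%, with 1.24% of all windows of the arms). CAGGTAG, bound by the early activator Zelda, was in 1 (0.248%, with 0.534% of all windows). The promoter words TATCGATA, which reads the same on both strands, and GGTCACAC were in 6 (1.49%, with 0.275%) and 4 (0.990%, with 0.210%). Windows at start sites held these words more often, in 4.48% and 4.68%, and 36.4% of missing sites were at promoters. The E-boxes CACGTG and CAGCTG were in 16 (3.96%, with 5.36%). Adjusted p-values of these 5 by Fisher's exact test ran from 0.129 to 1. At these counts only large differences could be seen, and the odds ratio of GGTCACAC, 3.27, had an interval of 0.716 to 12.2.

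The nearest protein-coding start within 10 kb was taken as a site's gene, which gave 313 genes for 339 of 404 missing sites. That is 2.24% of the 13945 protein-coding genes on the arms, and 15.5% of them had a conservative peak by the same rule. Of the 313 genes, 118 (37.7%) also had a conservative peak, and 195 did not (1.40% of all genes). A shared gene does not mean that the sites were close. The missing site of cnc, a gene with a conservative peak, was 22039 bp from the nearest conservative summit. Genes with a site of replicates 1 and 3 had a conservative peak in 92 of 204 cases (45.1%), and those with a site of replicates 2 and 3 in 32 of 109 (29.4%). These shares were not tested. The croc gene itself had no missing site. The nearest missing peak lay 58373 bp from its start.

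Genes of the EGF receptor pathway had missing sites at 7 of 20 members (35.0%, where 2.24% of all genes had one), and 11 of 20 had a conservative peak (55.0%, where 15.5% of all genes had one). The pathway turns a secreted ligand into Ras and MAP kinase signalling, and is known for patterning the ventral ectoderm and the head. Of the 7, 6 had their strongest missing site in the list of replicates 1 and 3, and all of those sites were in introns. Among the components that make or form ligands, Star (S), which carries the ligand precursor through the secretory pathway, had own signals of 65.5 in replicate 1, 28.2 in replicate 2 and 50.5 in replicate 3. The rhomboid protease gene ru had 61.2, 36.9 and 49.1 at the stronger of 2 missing sites. The neuregulin-like ligand vn had 39.9, 36.7 and 37.4, nearly level. The ligand gene spi differed, with a promoter site in the list of replicates 2 and 3 and own signals of 24.8, 44.8 and 35.8.

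Downstream, the kinase gene Raf had 42.2, 20.3 and 36.9, and pnt, the ETS factor that carries the output, had 52.8, 27.8 and 40.0. The secreted inhibitor aos had 48.9 in replicate 1 and 33.97 in replicate 3, and no ranked summit within 250 bp in replicate 2. Replicate 2 was lowest in S, ru, vn, Raf and pnt, an order that the choice of pair favours. Among all missing peaks only in the list of replicates 1 and 3, the upper quartile in replicate 2 was 36.7 and the lowest value in replicate 1 was 36.3. Except for vn, all 7 genes also had a conservative peak, which for Raf and aos was strong (signals of 910 each). In each of the 6 the conservative peak had the higher signal.

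Cytoplasmic ribosomal protein genes had missing sites at 7 of 92 members (7.61%, where 2.24% of all genes had one). All 7 sites were at promoters and in the list of replicates 2 and 3. Of the 92 members, 39 were assigned a conservative peak (42.4%, where 15.5% of all genes had one), and none of these 7 genes was. The sites lay 5 to 161 bp from a start, and the choice bars a conservative summit within 250 bp of a site. The lack of conservative peaks at these starts is thus largely set by the choice. The RpL23 site, 38 bp from its start, nevertheless lay 278 bp from a conservative summit that was assigned to another gene. RpS12 had own signals of 26.5 in replicate 1, 74.9 in replicate 2 and 35.9 in replicate 3. RpS3A had 34.7, 67.0 and 37.6, and RpL23 had 28.4, 67.2 and 48.8. Over the 7 genes, which also include RpL15, RpL36, RpL4 and RpS26, own signals ran from 21.1 to 34.7 in replicate 1, from 45.9 to 74.9 in replicate 2 and from 34.3 to 48.8 in replicate 3. The values of replicates 1 and 2 did not overlap, and the choice of pair favours that order. Among all missing peaks only in that list, the upper quartile in replicate 1 was 34.3 and the lowest value in replicate 2 was 42.6. The gap was thus shared by most peaks of the list and is not particular to these genes. The signal scale is the authors' and may differ between lists. No mitochondrial ribosomal protein gene (of 73) and no proteasome gene (of 48) had a missing site.

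**Figure D5:**
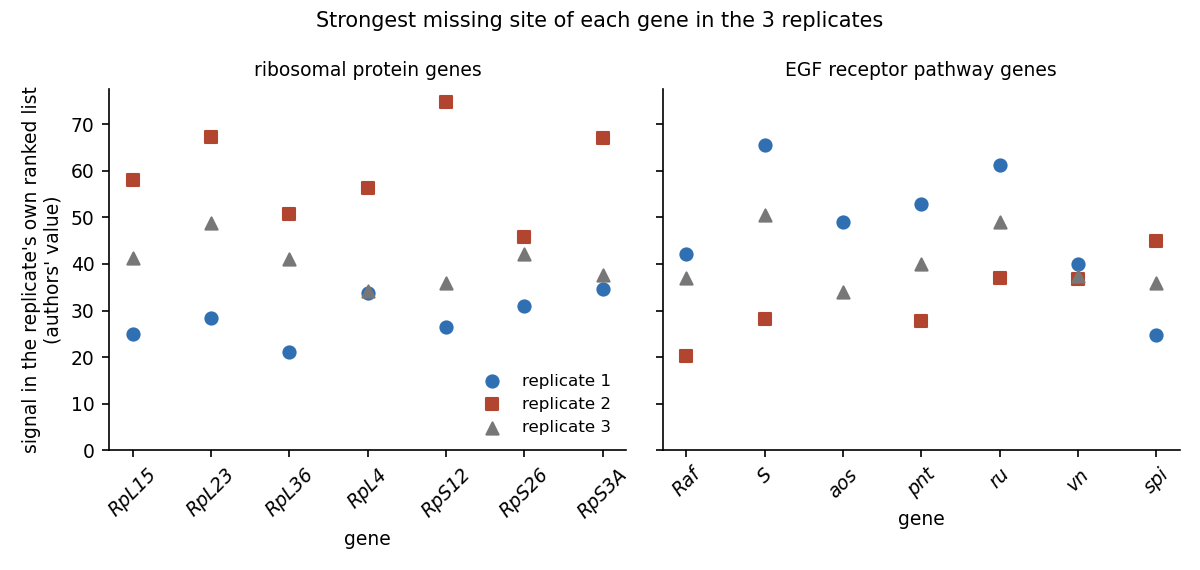
Signal (y axis, the authors' value in each replicate's own ranked list) of the strongest missing site of each ribosomal protein and EGF receptor pathway gene (x axis); markers are replicates, and a missing marker means no ranked summit within 250 bp. In own signal, replicate 2 is highest in all 7 ribosomal protein genes, from 45.9 to 74.9. Replicate 1 is highest in the 6 EGF pathway genes other than spi. The signal scale may differ between lists. Own ranks, in lists of unlike length, are best in replicate 3 for S, ru, vn, Raf and pnt, and in replicate 1 for aos. They are best in replicate 3 for RpL15, RpL23, RpL36 and RpS26, and in replicate 2 for RpL4, RpS12 and RpS3A. The choice of pair favours a low replicate 1 in the former and a low replicate 2 in the latter.

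Head patterning genes had missing sites at 6 of 25 members (24.0%, where 2.24% of all genes had one), and 9 of 25 had a conservative peak (36.0%, where 15.5% of all genes had one). The homeobox gene so had a promoter peak with own signals of 60.3 in replicate 1, 33.8 in replicate 2 and 50.3 in replicate 3, in a locus without a conservative peak within the limit. Optix, a gene of the same homeobox family, had an intergenic site of each kind, and the stronger had 49.2, 33.6 and 41.9. The gap gene kni, a nuclear receptor, had an intergenic site of replicates 2 and 3 with 36.1, 63.0 and 55.0. The homeobox gene ems and the bZIP gene cnc had sites of replicates 1 and 3 with lower signals, 113 and 111. These were nonetheless above the signals of the best conservative peak of each gene, 107 and 105, though the scale may differ between lists. These loci were thus split over both kinds of missing site.

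In the forkhead family 3 of 15 genes had missing sites (20%, where 2.24% of all genes had one), and 8 of 15 had a conservative peak (53.3%, where 15.5% of all genes had one). The promoter of fkh, the founding member, had own signals of 29.3 in replicate 1, 46.1 in replicate 2 and 47.2 in replicate 3, and that of FoxK had 25.6, 50.9 and 46.2. Both were in the list of replicates 2 and 3, and neither gene had a conservative peak. CHES-1-like had 3 missing sites beside a conservative peak of signal 788. The strongest of these had 38.7, 39.5 and 34.8 and scored 829 in the list of replicates 1 and 2, 1 below the lowest score of the conservative list.

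The other lists had few missing sites. BMP and Polycomb group genes had 3 of 20 each. In the BMP list, shn, a zinc finger factor of the pathway, had an intron site 534 bp from a conservative summit, with own signals of 40.2, 33.5 and 37.1, and the antagonist sog and the receptor wit had shoulder sites of signal 24.3 and 15.2. In the Polycomb list, ph-d and pho had promoter sites of replicates 1 and 3, and jing had an intron site of replicates 2 and 3 with a GAGA word. Mesoderm genes (Doc2 and the FGF receptor htl, of 28), tracheal genes (kni and vvl, of 16), ecdysone genes (ftz-f1 and shd, of 24) and gap and pair-rule genes (kni and ftz-f1, of 20) had 2 each. The axon guidance list (caps and dnt, of 48) also had 2. So did the list taken as Notch pathway (of 19), with mib1 and Notum, but Notum encodes a Wnt deacylase and its sites are counted again below. The Wingless and Hedgehog list had 1, the Wnt deacylase Notum, and so had the neural fate list, fne. Hox genes (of 8), insulator genes (of 24), muscle structure genes (of 29) and chemosensory receptor genes (of 179) had none. The lowest shares above 0 were 3.13% for neural fate (1 of 32), 3.85% for Wingless and Hedgehog and 4.17% for axon guidance. The others were further above the 2.24% of all genes, from 7.14% for mesoderm and 8.33% for ecdysone to 12.5% for tracheal genes. The 3 of 20 of the BMP and Polycomb lists were highest. These shares rest on few genes and were not tested. In the lists with a missing site, 28.1% (neural fate) to 50% (tracheal) of genes had a conservative peak, where 15.5% of all genes had one. Of the lists without one, Hox (37.5%), insulator (33.3%) and muscle structure genes (41.4%) were in that same range. Chemosensory receptor (2.23%), proteasome (10.4%) and mitochondrial ribosomal protein genes (12.3%) were below it.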

How the data were processed

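Peak lists of croc-eGFP ChIP-seq in 3 biological replicates were used as deposited on dm6. Per the labels, the authors made them by IDR. No source used here names the aligner, the peak caller or a version. Without read counts the depth is unknown. The signal value deposited for each peak is the authors' own, of unstated scale, and served to rank peaks of 1 list. Scores are the authors' scaled IDR scores. Thresholded peaks have a deposited −log10 IDR of at least 2. Which replicates made each ranked list was read from its input intervals.

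A summit is the interval start plus the peak offset. Missing peaks had no conservative summit within 250 bp. The own signal and own rank of a peak in a replicate are those of the strongest summit within 250 bp in that replicate's ranked list. They can thus belong to a neighbouring peak. Sites were formed by single linkage at 250 bp and shown by the peak of highest percentile rank. Genes came from the Ensembl release 115 annotation (BDGP6, same coordinates as RefSeq for 13944 of 13945 genes). Shares were compared by 2-sided Fisher's exact test with Benjamini-Hochberg adjustment over 12 properties (threshold 0.05), and forkhead words by an exact McNemar test, in Python 3.11.15 with scipy 1.17.1. Intervals of shares are exact (Clopper-Pearson, 95%) and cover counting error only. The tests were tried on simulated data. Sequences on arm 2R or touching an annotated untranslated exon were passed over.

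The members and gene lists were chosen with earlier results of these data known. The comparison of the 2 kinds of missing site, the 24 tests of each kind against retained sites and the signal range were added after seeing values, each adjusted within its own 12. Named genes are croc, those at the 10 strongest missing peaks of each list, those in the own lists of all 3 replicates, and up to 3 per gene list; the peaks in both lists, aos, spi, pnt, Raf, ems and cnc were named after seeing their values.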

Additional observations from a re-analysis of the deposited data

Results flagged for a closer look

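Unplaced scaffolds were outside every comparison. The lists held 14 peaks there, and 10 of those had no conservative summit within 250 bp, above the 3 that a count of 0 allows. Each of the 10 was on a scaffold assigned by name to X, with signals up to 177.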

How the results depend on the processing

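Of 208 recomputed values, 164 kept their direction and side of the threshold, 17 lost the call, 5 gained one, 19 reversed and 3 counts moved by over 1.5 times. Values here are odds ratios unless named otherwise, and the cause of each change was not tested.

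The promoter difference between the kinds of missing site held in every alternative run (2.34 to 3.19). Its intron and A+T differences were lost only at the highest score (0.593 and 0.424), where the forkhead word ratio to the flanks (1.57) also lost its call and 214 peaks remained. Without replicate 1 or 2, that ratio was 1.68 to 1.69 (lost without replicate 1, exact p = 0.0660), and member peaks numbered 185 to 323.

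Against retained sites, the excess of distant sites was lost at 500 bp (1.49), with every peak as its own unit (1.43), at the highest score (1.46), in the weaker 50% (1.42), at a signal of at least 50 (1.54) and in the same signal range (1.53). The A+T difference was lost at 500 bp (0.684), at the highest score (0.758), in the weaker 50% (0.983), at a signal of at least 50 (0.684) and with a 100 bp window (0.770), and reversed in the same signal range (1.07). Leaving out replicate 1 or 2 gave 1.10 to 1.69 for distant sites and 0.407 to 0.874 for A+T. It also gave 0.567 to 1.46 for promoters, 0.725 to 1.42 for introns, 0.873 to 1.27 for intergenic sites and 0.637 to 6.46 for GAGAGAG, with reversals for all 4 and calls gained for promoters and introns without replicate 2 and for GAGAGAG without replicate 1. At a promoter distance of 1000 bp the promoter difference passed (0.736).

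Also reversed, none past the threshold, were promoters (1.03), introns (0.951), X (1.02) and E-boxes (0.967) in the same signal range; CAGGTAG per peak (1.19) and at the highest score (1.66); TATCGATA at the highest score (0.659); and GAGAGAG in the weaker 50% (0.936). Between the kinds, forkhead words reversed per peak (1.05), at the highest score (1.63), at a signal of at least 50 (1.02) and in the same range (1.10), and GGTCACAC at a signal of at least 50 (1.04) and in the same range (1.03). GAGAGAG passed per peak (7.45).

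Leaving out replicate 3 was not run, since both lists contain it. No paired analysis was possible because the study has 1 group. Counts under 20 sites limit the rarer words, and a p over the threshold does not show equal shares.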
